A study of Homo sapiens with 14 samples.

Results

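The 6 mature arms made by a cluster of 3 microRNA (miRNA) genes, MIR99B, MIRLET7E and MIR125A, were described in small RNA from extracellular vesicles (EVs), which are small membrane-bound bodies shed by cells. The members were the 6 rows of the raw count table, of 2632 in all, that carry these names: miR-99b-5p, let-7e-5p and miR-125a-5p, the main arms, and miR-99b-3p, let-7e-3p and miR-125a-3p, the opposite arms of the same hairpins. The cluster was chosen by the shares of its main arms, which had been seen to differ between groups of these libraries, miR-125a-5p between SB and NT and all 3 arms between TGFb and SB. Differences in level are therefore given as values with their errors, and whether a fit over all miRNAs called a member is stated only as a description, since a call on the values that chose the members supports nothing. Tests to be read as such were kept for ratios between arms and for shares within families of related miRNAs. Those ratios were not used for the choice, but they are made from the same counts.

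The source was hES-2, an established line of human embryonic stem cells, differentiated to pro-epicardial cells, the precursors of the outer cell layer of the heart. All 4 groups came from this 1 line, were plated from cryopreserved pro-epicardial cells and were grown in StemPro medium. SB cells received 6 µM SB-431542, which blocks TGF-β type I receptors, for 8 days (4 libraries, labelled mature epicardial). NT cells had neither inhibitor nor additive (3 libraries, labelled untreated pro-epicardial). TGFb cells had 4 days with TGF-β1 at 5 ng/ml, followed by 4 without it (4 libraries), and FGF cells had 10 ng/ml basic FGF for 8 days (3 libraries). On day 4 the medium was passed through 100 kDa filters to deplete it of EVs, and EVs were later precipitated with a PEG-based kit from the conditioned medium of days 6 and 8. The labels do not say whether libraries of 1 group came from separate cultures, so every p-value measures only the spread between these libraries, which may be technical.

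A miRNA hairpin is cut into 2 mature arms, of which usually 1 is kept, and bases 2 to 8 of the mature arm, the seed, pair with target messages. The cluster unites 3 old families: miR-99/100, let-7, known for promoting differentiation and first found as a timing gene of the worm, and miR-125, the relative of worm lin-4. Vertebrate genomes hold related clusters, in human with miR-100, let-7a and miR-125b on chromosome 11 and with miR-99a, let-7c and miR-125b on chromosome 21. Members of the let-7 family repress LIN28, HMGA2 and RAS messages, and LIN28 in turn blocks let-7 processing in stem cells.

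The 3 hairpins lie within 728 bases of chromosome 19 (chr19:51692612-51693339, plus strand, GRCh38.p14), with 104 bases between MIR99B and MIRLET7E and 389 between MIRLET7E and MIR125A. In GENCODE release 29 all 3 fall in an intron of the protein-coding gene SPACA6 and, on the other strand, overlap an exon of the long non-coding RNA SPACA6P-AS. The RefSeq hairpins are shown because each holds both arms that were counted; the 5p arm is the first stretch in capitals and the 3p arm the second.
MIR99B (chr19:51692612-51692681): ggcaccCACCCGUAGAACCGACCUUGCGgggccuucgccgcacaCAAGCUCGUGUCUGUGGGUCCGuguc
MIRLET7E (chr19:51692786-51692864): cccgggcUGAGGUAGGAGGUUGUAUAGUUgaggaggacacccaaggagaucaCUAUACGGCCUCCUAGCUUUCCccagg
MIR125A (chr19:51693254-51693339): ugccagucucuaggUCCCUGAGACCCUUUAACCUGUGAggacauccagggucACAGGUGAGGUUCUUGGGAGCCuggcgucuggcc

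The 6 mature arms carry 6 different seeds, shown here in capitals, so the cluster addresses several sets of targets from 1 locus. All 6 members matched the RefSeq table, with lengths of 22 bases except miR-125a-5p with 24.
miR-99b-5p: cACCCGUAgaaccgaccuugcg
let-7e-5p: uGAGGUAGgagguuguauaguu
miR-125a-5p: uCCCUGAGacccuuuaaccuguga
miR-99b-3p: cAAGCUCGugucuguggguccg
let-7e-3p: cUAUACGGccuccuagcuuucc
miR-125a-3p: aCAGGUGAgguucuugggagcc

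Each main arm shares its seed with relatives made elsewhere in the genome, shown because counts of near-identical miRNAs can be split in different ways. How the authors split them is not given in the sources used here.
let-7a-5p: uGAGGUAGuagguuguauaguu
miR-125b-5p: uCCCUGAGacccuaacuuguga
miR-99a-5p: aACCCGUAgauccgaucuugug
miR-100-5p: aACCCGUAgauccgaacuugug
Counted from the 5′ end, with the cluster arm's base first, let-7a-5p differs from let-7e-5p by 1 substitution (G9U). That same substitution is among the differences of let-7e-5p from all 8 let-7 relatives considered, miR-98-5p included. miR-99a-5p differs from miR-99b-5p by 4 (C1A, A11U, C16U and C21U). miR-100-5p also differs from it by 4 (C1A, A11U, C16A and C21U). miR-125b-5p is identical to miR-125a-5p over the first 13 bases and is 2 bases shorter, at 22 against 24.

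The libraries were shallow. Totals ran from 115 to 14862 counts, with a median of 1352, and 4 libraries (SB replicates 1 and 2, TGFb replicate 2 and FGF replicate 2) held under 500. A share, the count of a miRNA over the library total, therefore has a 95% Wilson interval that is wide in those 4, and such intervals cover counting error only. Marker lists of other sources were checked. Of 8 miRNAs of undifferentiated stem cells, 2 had any count (miR-302a-3p and miR-372-3p), and their summed share reached at most 0.0990% of a library. Of 7 miRNAs of serum and blood cells, 5 had counts, mostly miR-16-5p, which many tissues make, with 390 counts, while miR-451a and miR-144-3p were at 0. Their summed share was 0.161% to 2.38% in NT and 0.348% to 1.66% in TGFb, against 1.52% to 4.47% in SB and 1.74% to 4.95% in FGF, so this list was higher in the groups where the cluster was lower. Its part in the results was not tested. No list of miRNAs that define the epicardium was used here.

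The cluster supplied a large part of the EV miRNA counts. Its 3 main arms together had 8310 of 47091 counts, and their share averaged 12.5% ± 5.83 (SD, n = 14), from 3.91% in SB replicate 2 to 23.6% in NT replicate 1. All 3 had at least 1 count in every library. miR-125a-5p was among the 10 most abundant miRNAs in 13 libraries, miR-99b-5p in 10 and let-7e-5p in 8.

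By group, the share of the 3-arm sum was 17.1% ± 7.03 in NT (n = 3), 16.6% ± 3.45 in TGFb (n = 4), 10.1% ± 0.517 in FGF (n = 3) and 6.55% ± 2.22 in SB (n = 4). NT and TGFb differed by less than the spread within either group. The FGF libraries, at 9.57% to 10.6%, lay above all SB libraries (3.91% to 8.44%) and below all TGFb libraries (11.5% to 18.8%), and overlapped NT (9.60% to 23.6%). The lowest FGF library, replicate 2, rests on 11 of 115 counts (Wilson interval 5.43% to 16.3%), which reaches into both groups. Of 47 miRNAs that passed a filter on low counts, 10.6% did not overlap between FGF and SB and 14.9% between TGFb and FGF. No single main arm was among them, so nothing is read from this separation. In bulk EV samples a smaller number of EVs from 1 kind of cell and fewer copies per EV cannot be told apart.

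The same order held only in part when libraries of the same replicate number were set side by side. Among those numbered 3 the sum was 18.8% in TGFb, 18.1% in NT, 10.1% in FGF and 8.44% in SB. Among those numbered 4 it was 18.2% in TGFb, 10.6% in FGF, 9.60% in NT and 8.32% in SB. Number 1 had 23.6% in NT, 11.5% in TGFb and 5.51% in SB, and number 2 had 18.2% in TGFb, 9.57% in FGF and 3.91% in SB. SB was thus the lowest group in each of the 4 numbers, and TGFb was the highest in 3. Depth moved with the groups as well: 2 of 4 SB libraries, 1 of 4 TGFb libraries and 1 of 3 FGF libraries had under 500 counts, but none of the NT libraries. In the 10 deeper libraries SB was at 8.32% and 8.44%, FGF at 10.1% and 10.6%, TGFb at 11.5% to 18.8% and NT at 9.60% to 23.6%. These shares are among those that chose the cluster, and the part of depth in the difference was not tested.

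**Figure D1:**
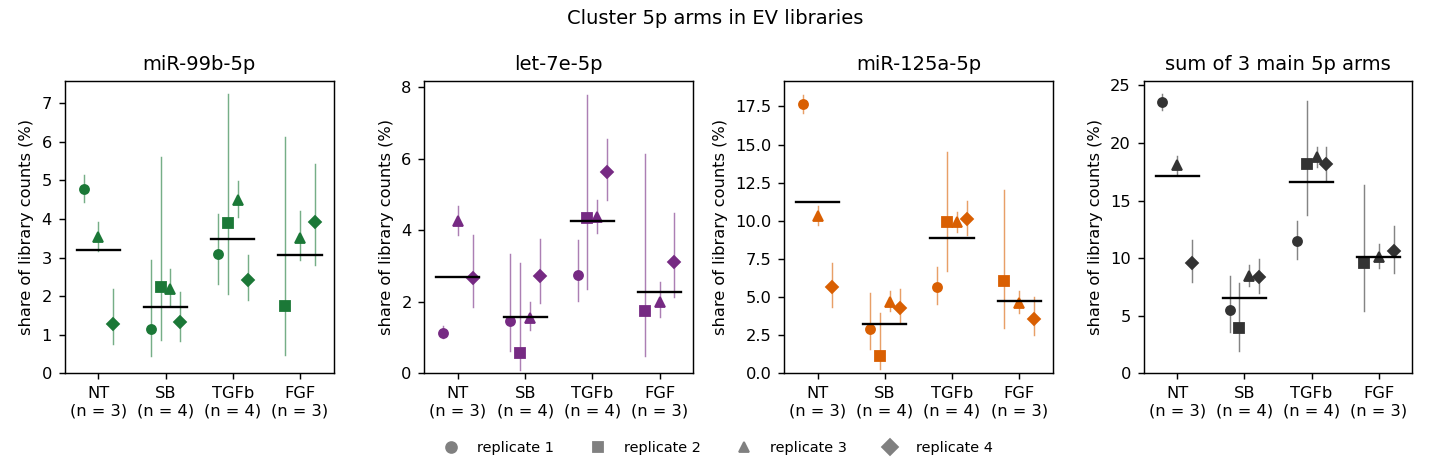
Share of library counts (%) of each main arm and of their sum, by group. Each point is 1 library with its 95% Wilson interval, marker shapes give the replicate number and black lines are group means; the 4 TGFb libraries lie above the 4 SB libraries in all 4 panels, from 11.5% to 18.8% against 3.91% to 8.44% for the sum.

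miR-125a-5p, of the miR-125 family, was the most abundant member and had the widest spread of group means. In NT it took 17.6%, 10.3% and 5.64% of counts in replicates 1, 3 and 4. In SB it took 2.90%, 1.12%, 4.70% and 4.28% in replicates 1 to 4. All SB libraries were below all NT libraries, though the lowest rests on 2 counts of 179 (Wilson interval 0.307% to 3.98%). In TGFb the shares were 5.64%, 9.96%, 9.91% and 10.1% in replicates 1 to 4, so 3 libraries were nearly alike and replicate 1 was lower. In FGF they were 6.09%, 4.60% and 3.57% in replicates 2 to 4, between the highest NT and the lowest SB values and overlapping both groups.

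let-7e-5p, a member of the let-7 family, had 1.14%, 4.25% and 2.67% in the NT replicates 1, 3 and 4. Its SB shares were 1.45%, 0.559%, 1.54% and 2.72% in replicates 1 to 4, and its TGFb shares 2.75%, 4.33%, 4.36% and 5.63%. The lowest TGFb library was just above the highest SB library, and the NT libraries spanned most of both ranges. In FGF the shares were 1.74%, 2.01% and 3.11% in replicates 2 to 4, within the NT range.

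miR-99b-5p, of the miR-99/100 family known to repress MTOR, was the least variable of the 3. Its shares in NT were 4.78%, 3.53% and 1.29% in replicates 1, 3 and 4. In SB they were 1.16%, 2.23%, 2.20% and 1.32% in replicates 1 to 4. TGFb had 3.10%, 3.90%, 4.49% and 2.42% there, again just above SB. FGF had 1.74%, 3.52% and 3.92% in replicates 2 to 4 and overlapped the other groups. On the log2 CPM scale (CPM, the count per library total, with 0.5 added to each count) the SD over 14 libraries was 0.66 for miR-99b-5p, 0.80 for let-7e-5p and 0.93 for miR-125a-5p.

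Levels were compared across groups in edgeR, with all 14 libraries in 1 fit over 47 miRNAs that passed a filter on low counts. Of the 6 members, the 3 main arms passed it and the 3 opposite arms did not. Between TGFb and SB, the log2 fold change was 1.61 (SE 0.50) for miR-125a-5p, 1.59 (SE 0.50) for let-7e-5p and 1.28 (SE 0.50) for miR-99b-5p. All 3 were higher in TGFb in each of the 4 replicate numbers, and none was called in the fits without replicate number, where 0% of the 47 miRNAs were at an adjusted p below 0.05 in edgeR (4 at an unadjusted p below it) and 0 in DESeq2. With replicate number as a block in edgeR, let-7e-5p (1.71, SE 0.46) and miR-125a-5p (1.65, SE 0.44) were called, both at an adjusted p of 0.0212. In that fit 3 of the 47 miRNAs were called. The calls of let-7e-5p and miR-125a-5p concern values that chose the members, so they support nothing. Values of the 2 groups did not overlap for any of the 3, against 8.51% of the 47; these shares chose the members, so nothing is read from the count.

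Between SB and NT the log2 fold changes were −1.98 (SE 0.53) for miR-125a-5p, −1.20 (SE 0.52) for miR-99b-5p and −0.83 (SE 0.52) for let-7e-5p. In this comparison 2.13% of the 47 miRNAs were called, and the 1 called was miR-125a-5p. It was also the only main arm whose groups did not overlap, against 8.51% of the 47. That call concerns a value that chose the member. It was lost with RLE factors, with library size only, without the expression filter, in the adjusted table, in libraries of at least 500 counts, and when any of 8 single libraries was left out. The fold change kept its sign in all 21 alternatives: it was −1.83 with RLE factors (edgeR adjusted p = 0.0843), −1.68 with library size only (edgeR adjusted p = 0.0714), between −2.55 and −1.24 over the alternatives in processing, and between −2.74 and −1.72 with 1 library left out. let-7e-5p was higher in SB than in NT in 2 of the 3 shared replicate numbers, against the direction of its fold change, which was −0.67 without NT replicate 3.

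Between FGF and NT the log2 fold change was −1.83 (SE 0.58) for miR-125a-5p, with −0.58 (SE 0.57) for let-7e-5p and −0.49 (SE 0.55) for miR-99b-5p. Of the 47 miRNAs 2.13% were called, none of them a member, and groups did not overlap for 17.0% of the 47 and for none of the main arms. Scaled by library size alone, miR-99b-5p had a value of 0.09. Between TGFb and NT the values were 0.75 (SE 0.52) for let-7e-5p, 0.08 (SE 0.51) for miR-99b-5p and −0.37 (SE 0.51) for miR-125a-5p. The last 2 changed sign between settings, from −0.27 to 0.50 for miR-99b-5p and from −0.91 to 0.24 for miR-125a-5p. There 0% of the miRNAs were called in edgeR (2 at an unadjusted p below 0.05) and 0 in DESeq2, and 8.51% did not overlap, without a main arm among them.

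FGF and SB differed by 0.71 (SE 0.54) in miR-99b-5p, by 0.26 (SE 0.54) in let-7e-5p and by 0.15 (SE 0.54) in miR-125a-5p, whose value was −0.33 in libraries of at least 500 counts. TGFb was above FGF by 1.46 (SE 0.55) in miR-125a-5p, 1.33 (SE 0.55) in let-7e-5p and 0.57 (SE 0.53) in miR-99b-5p. Both comparisons had 0% called in edgeR, with 3 and 7 miRNAs at an unadjusted p below 0.05, against 1 called in each by DESeq2, not a member, and no main arm was free of overlap, against 10.6% of the 47 miRNAs for FGF and SB and 14.9% for TGFb and FGF. Comparisons that share a group of libraries are not independent of each other. Scaling by library size alone, in place of TMM, moved the median log2 fold change of all 47 miRNAs from −0.08 to −0.39 in TGFb against SB, from −0.04 to 0.16 in SB against NT and from −0.06 to −0.70 in TGFb against FGF. Under that scaling TGFb was above FGF by 0.89 in miR-125a-5p, 0.78 in let-7e-5p and 0.01 in miR-99b-5p.

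**Figure D2:**
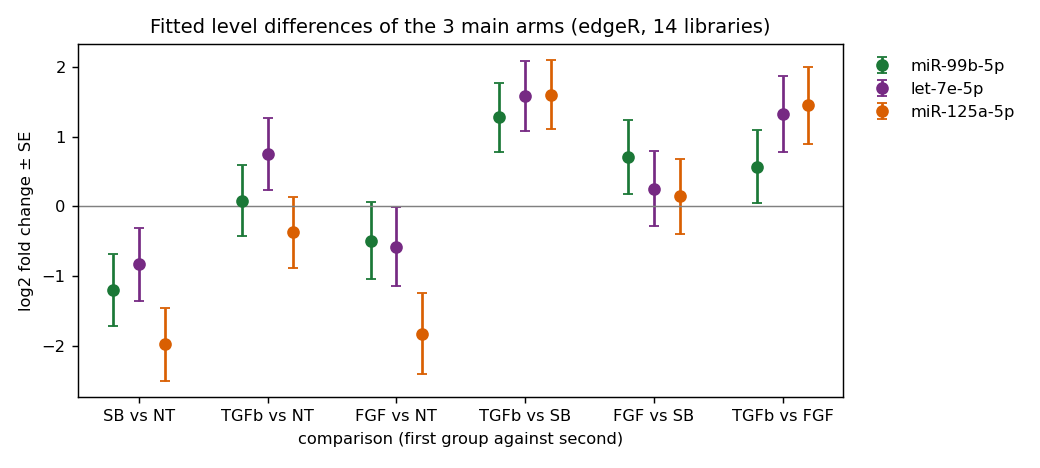
Log2 fold change (edgeR, TMM scaling, bars are ± SE) of the 3 main arms in the 6 comparisons, first group against second. All 3 arms lie above 0 for TGFb against SB (1.28 to 1.61) and below 0 for SB against NT (−1.98 to −0.83), and miR-125a-5p lies below the other arms in the 3 comparisons with NT.

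The balance between the main arms was then examined, since the rule that chose the members used levels and not ratios. miR-125a-5p was the highest of the 3 in 12 of 14 libraries and averaged 52.4% ± 11.4 (SD, n = 14) of the 3-arm sum. miR-99b-5p averaged 24.9% ± 11.6 and let-7e-5p 22.6% ± 7.31. The exceptions were SB replicate 2, with 7 counts in all, and FGF replicate 4, where miR-99b-5p had 34 counts, miR-125a-5p 31 and let-7e-5p 27.

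In TGFb the composition varied little between libraries for miR-125a-5p and let-7e-5p: miR-125a-5p was 49.1% to 55.7% of the sum, let-7e-5p 23.2% to 31.0% and miR-99b-5p 13.3% to 27.0%. In NT it varied more, with 1 library apart from the others. let-7e-5p was 4.83% of the sum in NT replicate 1 (169 of 3502 counts, Wilson interval 4.16% to 5.59%), against 23.5% in NT replicate 3 (402 of 1713, 21.5% to 25.5%) and 27.8% in NT replicate 4. The 13 other libraries were between 14.3% and 32.7%. Replicates 1 and 3 are the deepest libraries of the series, so this gap is far outside counting error. In the 2 deeper FGF libraries miR-99b-5p was 34.8% (29.8% to 40.1%) and 37.0% (27.8% to 47.2%) of the sum, against 13.4% to 20.3% in NT. FGF replicate 2 was within the NT range, at 18.2% (2 of 11 counts, 5.14% to 47.7%). Other groups also reached above NT: SB ran from 15.9% to 57.1%, the highest on 7 counts, and TGFb up to 27.0%.

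**Figure D3:**
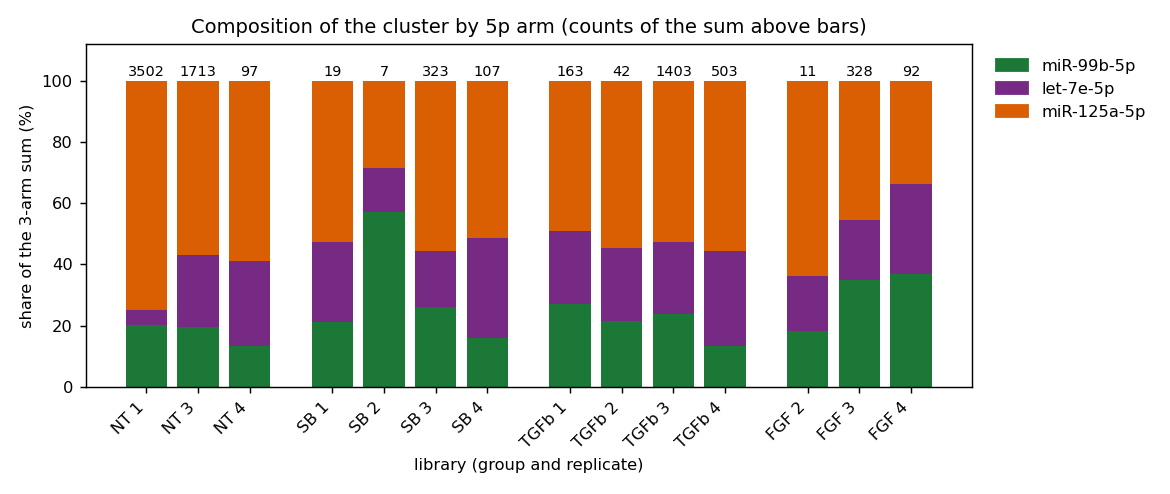
Composition of the 3-arm sum (%) in each library, stacked by arm, with the summed count above each bar. miR-125a-5p is the largest part in 12 of 14 libraries, let-7e-5p falls to 4.83% in NT replicate 1, and the bars for SB replicates 1 and 2 and FGF replicate 2 rest on 19, 7 and 11 counts.

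The log2 ratio of miR-125a-5p to miR-99b-5p was 1.84 ± 0.27 in NT (SD, n = 3), 1.34 ± 0.51 for TGFb (n = 4), 0.78 ± 1.11 for SB (n = 4) and 0.61 ± 0.88 in FGF (n = 3). It ran from 1.55 to 2.09 in NT, and was 1.58, 0.38 and −0.13 in FGF replicates 2 to 4. Groups took 32.3% of the variance, which did not pass (exact permutation p = 0.238, adjusted p = 0.534 over 12 tests). In libraries of at least 500 counts groups took 74.7% (exact permutation p = 0.0381), which also did not pass after adjustment (adjusted p = 0.373). Between TGFb and SB the ratio differed by 0.56, less than the spread within SB (exact permutation p = 0.457, adjusted p = 0.610). In the deeper libraries that difference was −0.030.

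The ratio of let-7e-5p to miR-99b-5p was close to even and varied the most: NT had −0.26 ± 1.61 (n = 3), SB −0.20 ± 1.12 (n = 4), TGFb 0.29 ± 0.63 (n = 4) and FGF −0.38 ± 0.41 (n = 3). Groups took 8.20% of the variance (exact permutation p = 0.833, adjusted p = 0.833). TGFb and SB differed by 0.48 (exact permutation p = 0.457, adjusted p = 0.610). By replicate number the mean ratio was −0.65, −0.48, −0.27 and 0.73 for numbers 1 to 4, with an SD over groups of 1.25, 0.96, 0.48 and 0.71. In number 4 it was 1.03 in NT, 1.02 in SB, 1.21 in TGFb and −0.33 in FGF. A difference between numbers was not tested.

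The ratio of miR-125a-5p to let-7e-5p had a mean of 2.10 ± 1.61 for NT (n = 3), 0.98 ± 0.43 for SB (n = 4), 1.05 ± 0.16 for TGFb (n = 4) and 0.99 ± 0.72 for FGF (n = 3). The NT mean rests on replicate 1, at 3.95, with 1.28 and 1.06 in replicates 3 and 4. Groups took 29.1% of the variance (exact permutation p = 0.281, adjusted p = 0.534), and between 3.31% and 45.6% when each library was left out in turn, with the lowest value without NT replicate 1. TGFb and SB differed by 0.07 (exact permutation p = 0.771, adjusted p = 0.833), with a sign that changed between settings. With 4 libraries against 4 the smallest p possible is 0.0286, which these 3 ratios did not approach. Even with every TGFb against SB test at that p, none would pass after adjustment over 12 tests. They could pass only together with tests over the 4 groups that were as low.

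**Figure D4:**
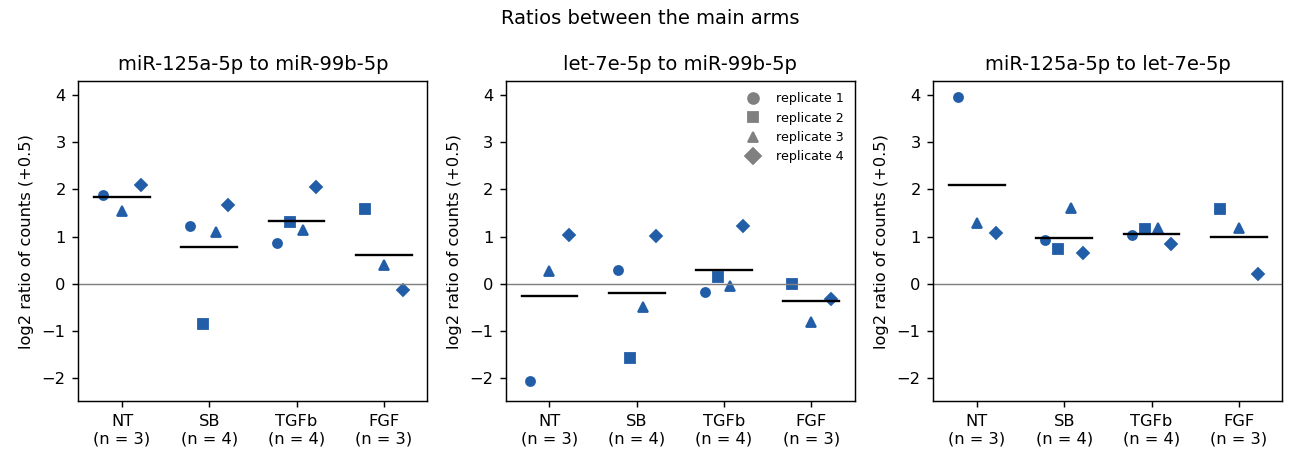
Log2 ratios between the main arms (0.5 added to each count) by group; each point is 1 library, marker shapes give the replicate number, black lines are group means and the grey line marks equal counts. NT replicate 1 stands at 3.95 for miR-125a-5p to let-7e-5p and at −2.07 for let-7e-5p to miR-99b-5p, while the 4 TGFb libraries keep miR-125a-5p to let-7e-5p between 0.84 and 1.18.

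The opposite arms were rare, to a degree that differed between the 3 hairpins. miR-99b-3p had 97 counts against 1772 of the 5p arm, which is 5.19% of both arms over all libraries (Wilson interval 4.27% to 6.29%). miR-125a-3p had 9 against 5215, or 0.172% (0.0907% to 0.327%). let-7e-3p had 0 beside 1323 counts of let-7e-5p, which allows a share of up to 0.227%. The interval of miR-99b thus lay above those of the other hairpins, although counts of 1 arm in different libraries are not independent draws.

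miR-99b-3p was found in 10 of 14 libraries, and the 4 without it were the 4 with under 500 counts. In the 6 libraries with at least 50 counts of both arms, its part was 5.59% in NT replicate 1 (42 of 752 counts), 5.11% in NT replicate 3 and 7.69% in SB replicate 3. It was 2.61% in TGFb replicate 3, 2.90% in TGFb replicate 4 and 8.80% in FGF replicate 3. Pooled within groups it was 5.46% in NT (Wilson interval 4.27% to 6.95%), 7.63% in SB (4.06% to 13.9%), 2.98% in TGFb (1.78% to 4.94%) and 7.98% in FGF (4.72% to 13.2%). TGFb was the lowest, with an interval that overlapped those of NT, SB and FGF, and no test was run on the 9 to 61 counts per group. miR-125a-3p had 2 and 5 counts in NT replicates 1 and 3, 1 each in SB replicates 2 and 3, and none in TGFb (0 of 1124, up to 0.267%) or FGF (0 of 187, up to 1.60%), so no difference between groups was detectable at this depth.

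Because each main arm shares a seed with miRNAs from other loci, the part of its family that came from the cluster was measured, over the relatives named in the methods. Over all libraries miR-99b-5p was 98.2% of the miR-99/100 family (1772 of 1804 counts), miR-125a-5p 86.1% of the miR-125 family (5215 of 6059) and let-7e-5p 70.1% of the let-7 family (1323 of 1888). Within these listed families the chromosome 19 cluster was thus the main source of counts when libraries were pooled, with most weight on the deepest. The lists left out miR-4458 and miR-4500, which carry the let-7e-5p seed, and miR-4319, which carries the miR-125a-5p seed. The relatives with the most counts were miR-125b-5p (844), let-7a-5p (224) and let-7b-5p (150), whereas miR-99a-5p had 9 counts and miR-100-5p 23.

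miR-125a-5p was 87.2% ± 2.51 of its family in NT (SD, n = 3), from 85.1% to 90.0%. It was 79.6% ± 6.58 in TGFb (n = 4), from 71.9% to 85.9%, and 73.4% ± 17.3 in SB (n = 4), from 50% to 91.7%. In FGF it was 53.8%, 70.6% and 59.6% in replicates 2 to 4, a mean of 61.4% ± 8.52, below every NT and TGFb library. The margin to TGFb was narrow: the lowest TGFb library, replicate 2, rests on 32 family counts (Wilson interval 54.6% to 84.4%). FGF replicate 2 rests on 13 (29.1% to 76.8%). Groups took 48.1% of the variance (exact permutation p = 0.0745, adjusted p = 0.534), which did not pass. With 10 deeper libraries the value was 70.8% (exact permutation p = 0.0622, adjusted p = 0.373). TGFb and SB differed by 6.22 percentage points (exact permutation p = 0.629, adjusted p = 0.754), and by −1.58 points without SB replicate 2, whose value rests on 4 counts.

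let-7e-5p was 71.0% ± 8.64 of the let-7 family in NT (n = 3), 62.7% ± 19.3 in TGFb (n = 4), 45.6% ± 25.7 in FGF (n = 3) and 38.3% ± 33.6 in SB (n = 4). Low values came with low depth. The share was 16.7%, 3.23%, 35.7% and 18.2% in the 4 libraries under 500 counts (SB replicates 1 and 2, TGFb replicate 2 and FGF replicate 2), and 49.2% to 80.7% in the 10 deeper ones. TGFb and SB differed by 24.5 points (exact permutation p = 0.20, adjusted p = 0.534), but by 5.16 points in the deeper libraries. Groups took 28.4% of the variance (exact permutation p = 0.312, adjusted p = 0.534). let-7b-5p, which differs from let-7e-5p by 3 substitutions, had 2 to 39 counts per library, with 11 of 345 in SB replicate 1 and 14 of 179 in SB replicate 2.

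miR-99b-5p made up nearly all of its family in every group: 96.9% ± 3.5 in NT (n = 3), 99% ± 1.16 in TGFb (n = 4), 97.9% ± 1.82 in FGF (n = 3) and 88.3% ± 10.0 in SB (n = 4). The 2 lowest values, 80.0% each in SB replicates 1 and 2, rest on 5 counts each. Groups took 45.3% of the variance (exact permutation p = 0.106, adjusted p = 0.534), and 12.7% in the deeper libraries. TGFb and SB differed by 10.7 points (exact permutation p = 0.143, adjusted p = 0.534), and by 2.01 points in the deeper libraries. None of the 12 tests of ratios and family shares passed, and 0 had an unadjusted p under 0.05. Those of TGFb against SB could not have passed on their own.

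**Figure D5:**
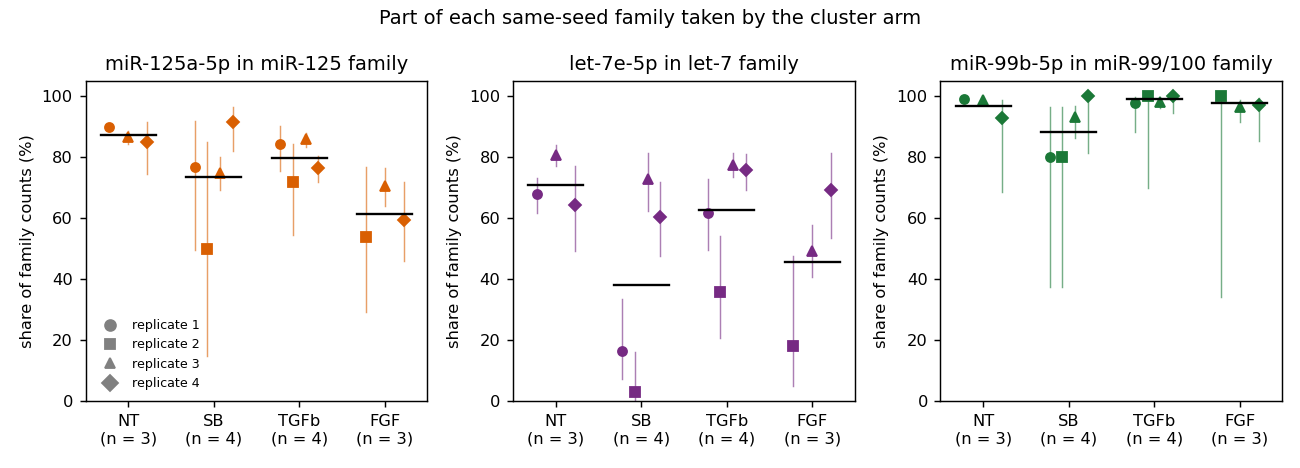
Share (%) of each same-seed family that was counted as the cluster arm, by group; points are libraries with 95% Wilson intervals, marker shapes give the replicate number and black lines are group means. miR-99b-5p stays at or above 80.0% in all libraries, the FGF libraries lie lowest for miR-125a-5p by group mean (61.4%), and the lowest values for let-7e-5p belong to the 4 libraries with under 500 counts.

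Of the 11 same-seed relatives considered from other loci, 5 passed the filter on low counts (let-7a-5p, let-7b-5p, let-7c-5p, let-7i-5p and miR-125b-5p), and 0 were called by edgeR in each of the 6 comparisons. In SB against NT, let-7b-5p had a log2 fold change of 3.97 (SE 1.28, adjusted p = 0.104 in edgeR) and was called higher in SB by DESeq2 (4.27, SE 1.17, adjusted p = 0.0125). edgeR called it too without NT replicate 4, SB replicate 3 or TGFb replicate 2, and in libraries of at least 500 counts its value was 1.15 (SE 1.06). Their median log2 fold change was 2.25 for SB against NT and −0.89 for TGFb against SB, beside −0.04 and −0.08 over all 47 miRNAs. In libraries of at least 500 counts, where 3 relatives were tested, the medians were −1.18 and 1.07. miR-125b-5p, from the related clusters on chromosomes 11 and 21, had log2 fold changes of −0.88 (SE 0.64) for SB against NT, 1.42 (SE 0.61) for TGFb against SB and 0.36 (SE 0.68) for FGF against NT. Its share was 1.52% ± 0.492 in NT, 0.986% ± 0.492 in SB, 2.42% ± 1.31 in TGFb and 3.18% ± 1.78 in FGF, so in FGF it was not low as miR-125a-5p was.

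The pattern over libraries most like that of the 3-arm sum was sought by the SD of the log2 ratio to the sum over 14 libraries, where a small SD means a steady ratio. Among the 44 other tested miRNAs this SD ran from 0.78 to 3.54 with a median of 1.48, and abundant miRNAs have less counting noise in it. The smallest were miR-483-5p (0.78), from an intron of IGF2, miR-92a-3p (0.80), of the miR-17-92 cluster and its relatives, and miR-1307-3p (0.86). Between TGFb and SB their log2 fold changes were 0.90 (SE 0.59), −0.07 (SE 0.43) and 0.30 (SE 0.68), each below those of the main arms, and a test of that difference was not run. The next steadiest were miR-181a-5p (0.91) and miR-125b-5p (0.92). Their log2 fold changes between TGFb and SB, 1.32 (SE 0.82) and 1.42 (SE 0.61), were above that of miR-99b-5p (1.28).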

How the data were processed

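Small RNA of EVs from 14 samples was measured as miRNA counts. The raw counts that the authors deposited are whole numbers for 2632 miRNAs and were not normalized; QIAseq miRNA libraries were used per the labels' protocols. GRCh38 is named in the submitters' processing notes; the aligner, the miRNA annotation and the use of molecular identifiers are not given in the sources used here. The authors also deposited adjusted values, treated as a score because how they were made is not given, with mean CPM per group; 14 other deposited columns and 2 rows without a name were not used.

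The members, lists and tests were chosen with earlier results of these data known. Libraries were grouped by their labels, and groups were compared with edgeR 4.0.16 in R 4.3.3 (quasi-likelihood test, TMM, filterByExpr with a minimum count of 10, robust), Benjamini-Hochberg adjustment over all 47 tested miRNAs and a threshold of 0.05. SE is the log2 fold change over the square root of F. Ratios had 0.5 added to each count. Ratios and family shares were tested by exact permutation of libraries over the 4 groups (share of variance, one-sided) and between TGFb and SB (difference in means, two-sided), adjusted over 12 tests. Scripts were tested on simulated data. Named are the members, their same-seed relatives (miR-99a, miR-100, miR-125b, let-7a, b, c, d, f, g and i, and miR-98, 5p arms) and the 3 miRNAs with the steadiest ratio to the 3-arm sum. Further miRNAs named are those of the marker lists, the same-seed miRNAs left out of the families, and miR-181a-5p, the next steadiest. Totals ran from 115 to 14862 counts; intervals are 95% Wilson, and the limit for a share at 0 is 3 counts of the total. Alternatives were RLE factors, library size only (added after the data were seen), DESeq2 1.42.0, no expression filter, a replicate block, the adjusted table (limma 3.58.1 on log2 values with 0.5 added), libraries of at least 500 counts, a pseudocount of 1 and each library left out. Sequences are from RefSeq (GRCh38.p14) and annotation from GENCODE 29.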

Additional observations from a re-analysis of the deposited data

Results flagged for a closer look

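In the groups of 4 libraries (SB and TGFb), 22 sets of values of the members were searched for 1 library standing apart, and 2 were found where chance gives 1.1. Both concern TGFb replicate 1. Its share of miR-125a-5p was 5.64% (80 of 1418 counts), with the nearest other TGFb library at 9.91%, a gap of 0.955 of the range. Its share of the 3-arm sum was 11.5% (163 counts), with the nearest at 18.2%, a gap of 0.917 of the range. The sum contains miR-125a-5p, so these are not separate findings. The ratios between arms in this library (0.86 for miR-125a-5p to miR-99b-5p on the log2 scale) did not stand apart by the same measure.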

How the results depend on the processing

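Of the counts of called members, the 1 in SB against NT (miR-125a-5p) was 0 when RLE factors were used, and also with library size only, no expression filter, the adjusted table and libraries of at least 500 counts. It was 1 with DESeq2, among 3 called of the 47 miRNAs. When 1 library was left out, the count of called members ran from 0 to 2. It was 0 without NT replicate 1, SB replicates 1, 2 or 4, TGFb replicates 1, 3 or 4, or FGF replicate 2. It was 2 without NT replicate 4, where miR-99b-5p also passed, among 9 called of the 53 miRNAs tested there. In FGF against NT the count ran from 0 to 1. miR-125a-5p was called without NT replicate 4, among 8 called of 53 miRNAs, and without SB replicate 2, among 2 of 46. With the replicate block, 2 members were called in TGFb against SB (let-7e-5p and miR-125a-5p), among 3 called of the 47 miRNAs. No other count of called members changed. Same-numbered libraries of different groups tended to deviate together: the mean correlation was 0.307, against −0.0949 for different numbers, and 9 of 14 libraries correlated best with their own number. Deviations were taken from group means, so these 2 mean correlations are not independent of each other. Depth also went with the number: totals were 179 (SB), 231 (TGFb) and 115 (FGF) counts in number 2, and 3241 (FGF) to 9462 (NT) in number 3. What the same-numbered libraries share was not tested. The block was kept as an alternative because the labels do not say what a number shares and 3 of 18 pairs were not above 0.1, the rule set for taking numbers as pairs. No ratio or family share passed in any setting, the block included. For TGFb against SB with the block this was fixed in advance, since the smallest p possible with 4 pairs is 0.125. Where SB or TGFb libraries were left out, the smallest p possible is above 0.0286, so nothing is read from those TGFb against SB tests. The TGFb against SB difference changed sign for miR-125a-5p to let-7e-5p (−0.092 in the adjusted table, −0.11 in libraries of at least 500 counts, −0.037 to 0.28 with 1 library left out), for miR-125a-5p to miR-99b-5p (−0.030 in libraries of at least 500 counts) and for the miR-125 family share (−1.14 points there, −1.58 to 12.3 with 1 left out). The cause of these changes was not tested. At the median total, 1 count is a large step for the opposite arms, and depth limits them most.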

Other observations

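The authors' adjusted table moved let-7e-5p largely by replicate number. In the 3 libraries numbered 1, let-7e-5p was raised by 0.85 (NT), 0.85 (SB) and 0.84 (TGFb) on the log2 scale, from 169 to 305 in NT replicate 1. In the 4 libraries numbered 4 it was lowered by −0.75 (NT), −0.61 (SB), −0.81 (TGFb) and −0.67 (FGF), and in those numbered 3 by −0.40 (NT), −0.21 (SB), −0.23 (TGFb) and −0.24 (FGF). In those numbered 2, let-7e-5p was raised by 0.68 (TGFb) and 0.58 (FGF) and was unchanged in SB. miR-125a-5p in NT replicate 1 went from 2623 to 2000, a change of −0.39. Its changes in the other libraries numbered 1 were 0.38 (SB) and 0.46 (TGFb). In number 4 its changes were −0.51 (NT), 0.17 (SB), 0.14 (TGFb) and −0.15 (FGF), while in number 3 it was lowered in all groups. In the authors' deposited table the mean CPM of miR-125a-5p was 103677 in TGFb and 94635 in NT, whereas the mean raw share was lower in TGFb (8.90%) than in NT (11.2%). For let-7e-5p the authors' deposited table gives a mean CPM of 47741 in TGFb, 25267 in NT, 22198 in FGF and 15859 in SB.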
